A study of Mus musculus with 6 samples.

Results

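The methionine cycle and transsulfuration were followed through 10 genes, Mat2a, Mat2b, Ahcy, Ahcyl1, Ahcyl2, Mtr, Mtrr, Mtap, Cbs and Cth, which were taken by symbol from the 24346 gene symbols of the RNA sequencing tables. All 10 had a row in every table. Parental cells were CT26.mMR1 cells, the mouse colorectal tumor line CT26 made to overexpress mouse MR1 by retroviral transduction. M8 cells were a mutant clone of these cells that came from treatment with the mutagen N-ethyl-N-nitrosourea (ENU) and limiting dilution, and they therefore carried the same MR1 transgene. Each line was sequenced in 3 replicates. M8 was picked in a screen for stronger activation of a mucosal-associated invariant T cell reporter and for higher surface MR1, and as a single clone it cannot separate the ENU mutations from other differences between clones. The comparison asked which metabolic genes differ in expression between the clone and the line it came from. Ahcyl1 was one of the genes that the study itself picked on these samples for a higher expression in M8, so its direction here is not independent evidence.

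In the methionine cycle, methionine is activated to S-adenosylmethionine, the methyl donor of the cell. Methyl transfer leaves S-adenosylhomocysteine, which is hydrolyzed to homocysteine, and homocysteine is either methylated back to methionine with a methyl group from the folate cycle or passed through transsulfuration to cysteine. Polyamine synthesis uses S-adenosylmethionine as well and releases methylthioadenosine, which a salvage route returns to methionine. The cycle thus meets folate metabolism at methionine synthase. In liver the first step is run by the Mat1a enzyme and betaine can also donate the methyl group, whereas most other cells rely on Mat2a and methionine synthase.

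Expression was given as FPKM, the number of sequenced fragments scaled to transcript length and to the size of the library, which can be compared between genes as a level per length. Of the 10 genes, 8 had a mean of at least 1 FPKM over the 6 libraries and were tested with limma on log2(FPKM + 1), together with all 10597 genes above this level. Among these genes, 21.2% were higher and 16.5% were lower in M8 at an adjusted p below 0.1, the threshold of the study (1658 higher and 2209 lower genes with the values rescaled to TPM, against 2250 and 1745 as deposited). Sequencing depth, read from the steps between the values of 2119 to 2403 weakly expressed genes, was 0.948 to 1.07 in the parental and 0.772 to 0.875 in the M8 libraries, relative to parental replicate 1. Of the 8 colon epithelium markers, Epcam, Cdh1 and Cdx2 were listed at 0 in all libraries, whereas the keratin Krt18 was present at a mean of 34.5 FPKM and the mesenchymal marker Vim at 1968 FPKM. Among epithelial markers, Krt20 (log2 fold change -0.50) and Lgals4 (-0.66) were lower in M8, Krt18 was at 0.18 without passing, and Krt8 stayed at or below 0.117 FPKM. Among 4 mesenchymal markers, Fn1 (-0.35) and Pdgfra (-0.43) were lower and Vim and Col1a1 did not pass. The part of these markers in the results below was not tested. M8 replicate 1 stood apart in hepatocyte markers, with a sum of 5.41 FPKM over Alb, Ttr, Mat1a and Bhmt against 0 to 0.137 FPKM in the other libraries. The calls of the members, and the counts over all lists of neighbouring steps, are also given without this library. The transgene Mr1 was at 1046 to 1139 FPKM in parental and 1034 to 1095 FPKM in M8 libraries, and it did not pass the test. In such bulk samples, fewer cells of a kind and less RNA per cell cannot be told apart.

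The enzymes of the methionine cycle itself were expressed at moderate to high levels in both lines and differed little between them, while the transsulfuration genes Cbs and Cth were at or near 0. Among the 8 genes tested, Mat2b and Ahcyl2 were lower in M8, Ahcyl1 was higher, and 5 did not pass. The count of 1 higher gene compares with 21.2% of all genes and that of 2 lower genes with 16.5%, so members passed the test about as often as genes in general. Their median log2 fold change was 0.0053, against 0.0069 over all genes tested. None of the 3 called genes changed by as much as 1.2-fold, a size that 14.9% of all genes tested reached together with a call. The values of the M8 and parental libraries did not overlap in 4 of the 8 genes, next to 45.2% of all genes tested. In either direction limma called 3 of the 8, against 37.7% of all genes tested. Without M8 replicate 1, no member was called higher and 1, Mat2b, was called lower, next to 15.0% and 10.8% of all genes in the same fit.

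**Figure D1:**
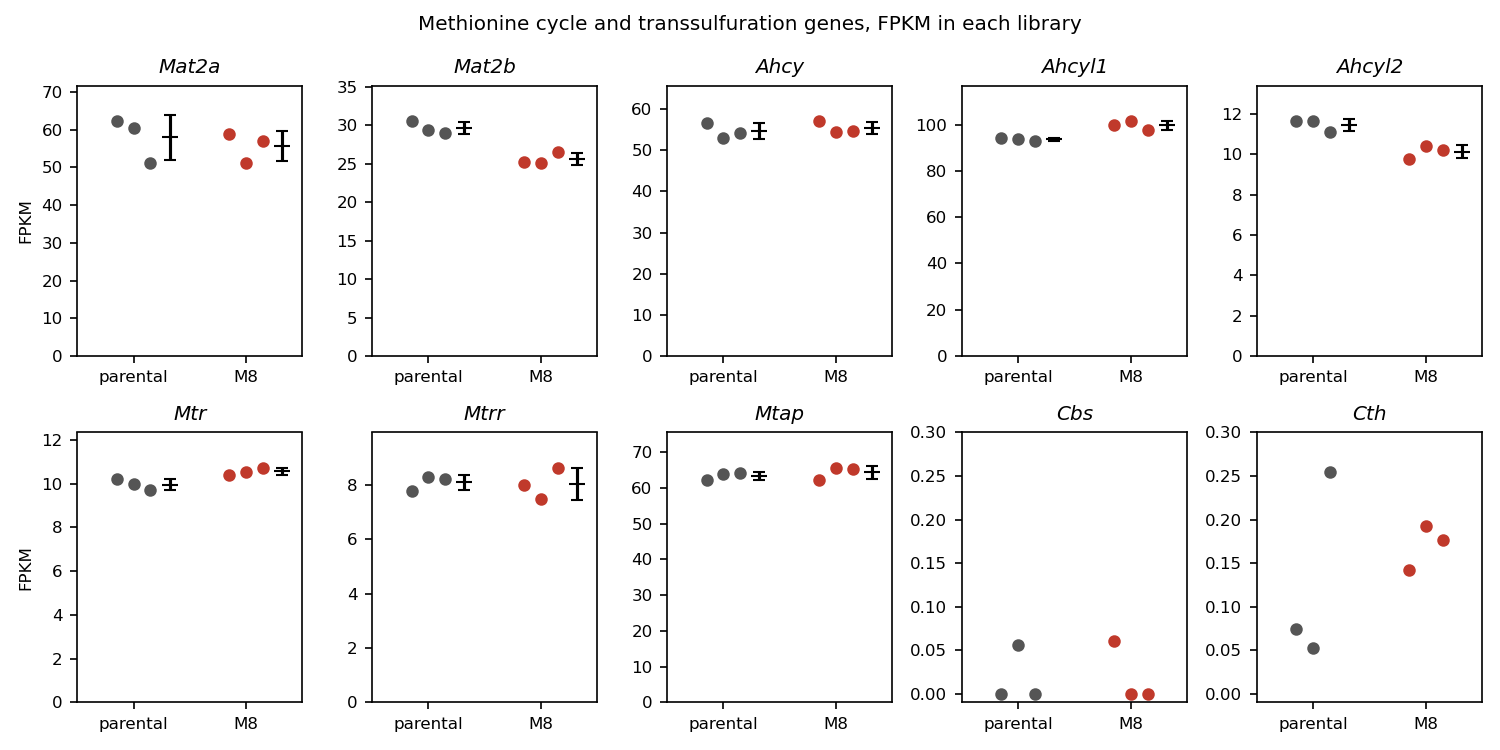
Each panel plots the FPKM of 1 gene in the 3 parental (grey) and 3 M8 (red) libraries, ordered by replicate number, with the mean and SD as a black bar beside them for the 8 genes tested. Mat2b and Ahcyl2 lie lower in every M8 library than in any parental one, and Cbs and Cth stay below 0.3 FPKM on an axis of their own.

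By level, Ahcyl1 stood first with a mean of 96.7 FPKM over the 6 libraries, and its lowest library exceeded the highest of any other member. Mtap (63.8 FPKM), Mat2a (56.8 FPKM) and Ahcy (55.1 FPKM) followed, and the ranges of neighbours in this order overlapped. Mat2b was next with 27.6 FPKM. Ahcyl2 (10.8 FPKM) and Mtr (10.3 FPKM) overlapped each other, Mtr being the higher of the pair in all 3 M8 libraries and the lower in all 3 parental ones. Mtrr came after them with 8.06 FPKM. Cth and Cbs closed the order more than an order of magnitude below. For the 8 genes tested, the coefficient of variation between replicates of a line ranged from 0.792% for Ahcyl1 in parental cells to 10.4% for Mat2a in parental cells.

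Mat2a encodes the catalytic subunit of methionine adenosyltransferase, the enzyme that makes S-adenosylmethionine outside the liver. Its FPKM was 62.3, 60.6 and 51.1 in parental replicates 1 to 3 and 59.0, 51.1 and 56.9 in M8 replicates 1 to 3. The lines overlapped, with 1 low library in each. The means of 58.0 ± 6.01 and 55.7 ± 4.06 FPKM (SD, n = 3 each) gave a log2 fold change of -0.055 (95% interval -0.23 to 0.12, limma adjusted p = 0.628). Mat2a thus had the widest spread of the 8 genes, and differences inside that interval were not detectable in these samples. Without M8 replicate 2 the log2 fold change was 0.0037 and without parental replicate 3 it was -0.14 (limma adjusted p = 0.130).

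The level of Mat2a mRNA is known to be regulated through hairpins in its 3′ UTR, which the RNA methyltransferase METTL16 binds and methylates when S-adenosylmethionine is sufficient. The hairpin loop carries the letters TACAGAGAA or TACAGAAAA. A search of the strand of the transcript found these letters at 6 places in the 1494 bases of the 3′ UTR of the Mat2a-201 transcript (GENCODE M21, GRCm38, minus strand of chromosome 6). They are shown with 11 bases before and 10 bases after, because they are the part of the transcript through which its own product feeds back, with the motif in capitals:
Site 1, chr6:72434235-72434264: ttggcgtaggtTACAGAGAAgccttcaagc
Site 2, chr6:72433451-72433480: cccttgtgataTACAGAGAAgtcacagggc
Site 3, chr6:72433272-72433301: gctggtgtagcTACAGAGAAaccagcttcc
Site 4, chr6:72433157-72433186: tatggcgtaagTACAGAGAAgccatcacct
Site 5, chr6:72433046-72433075: ccaaggtgtccTACAGAAAAaccttgggtt
Site 6, chr6:72432938-72432967: ggctggtgtggTACAGAGAAgccagcttgt
Sites 1 to 4 and 6 carry the letters TACAGAGAA and site 5 carries TACAGAAAA. Among the longest protein-coding transcripts of 21877 mouse genes, 7.47% held at least 1 such match and Mat2a was the only gene with 6 or more. The match is of letters and does not show that a site was bound or methylated in these cells. Mettl16 itself had an FPKM of 14.9, 15.5 and 15.8 in parental cells and 17.9, 19.3 and 19.6 in M8. All 3 M8 values lay above the parental ones, and limma gave a log2 fold change of 0.28 ± 0.052 (SE, adjusted p = 0.00441). Mat2a, which did not pass the test, had a mean FPKM 4.0% lower in M8.

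Mat2b encodes the regulatory subunit that binds the Mat2a enzyme and changes its kinetics. Its FPKM was 30.6, 29.4 and 29.0 in parental replicates 1 to 3 and 25.2, 25.1 and 26.6 in M8 replicates 1 to 3. Every M8 library lay below every parental one. The mean fell from 29.7 ± 0.802 to 25.6 ± 0.824 FPKM (SD, n = 3 each), a difference of -13.6%. In limma the log2 fold change was -0.20 with a standard error of 0.045 (adjusted p = 0.0102). This was the largest change among the members, and it passed in all 17 alternative fits, with limma adjusted p-values from 0.00651 to 0.0463, the last being that without M8 replicate 1 (log2 fold change -0.19). An exact permutation test (two-sided) of mean FPKM gave p = 0.1 for each of Mat2b, Ahcyl1, Ahcyl2 and Mtr, the smallest that 3 libraries against 3 allow.

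Within a library, the ratio of Mat2a to Mat2b does not depend on how libraries are scaled. It was 2.04, 2.06 and 1.76 in parental replicates 1 to 3 and 2.34, 2.04 and 2.14 in M8 replicates 1 to 3. The lines overlapped, and the difference of 0.15 on the log2 scale was not larger than the spread (95% interval -0.10 to 0.41, exact two-sided permutation p = 0.2, adjusted p = 0.267 over the 4 pairs that could be computed). With each library left out in turn, the difference ranged from 0.081 to 0.20.

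Ahcy encodes S-adenosylhomocysteine hydrolase, which clears the product that inhibits methyltransferases. Its FPKM was 56.7, 53.1 and 54.2 in parental cells and 57.1, 54.5 and 54.8 in M8. The lines overlapped, and the log2 fold change of 0.021 had a 95% interval of -0.075 to 0.12 (limma adjusted p = 0.747). Ahcy was thus among the steadiest of the members between the lines.

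Ahcyl1 and Ahcyl2 encode proteins that resemble the hydrolase, and the Ahcyl1 protein, also named IRBIT, is known for binding the inositol trisphosphate receptor. The pair moved in opposite directions. Ahcyl1 had an FPKM of 94.4, 93.8 and 92.9 in parental cells and 99.8, 101.5 and 97.7 in M8. All M8 libraries were higher, by 6.39% on average. In limma the log2 fold change was 0.088 with a standard error of 0.036 (adjusted p = 0.0990). This call is marginal, since Ahcyl1 did not pass in any of the 6 fits that left out 1 library (log2 fold change 0.075 to 0.10, limma adjusted p from 0.107 to 0.264), and 4 of 17 alternatives kept it. The log2 fold change was 0.061 with upper-quartile scaling, 0.052 with TPM and 0.012 with quantile normalization.

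Ahcyl2 had an FPKM of 11.6, 11.6 and 11.1 in parental replicates 1 to 3 and 9.78, 10.4 and 10.2 in M8 replicates 1 to 3. All M8 libraries were lower. The mean fell from 11.5 ± 0.306 to 10.1 ± 0.323 FPKM (SD, n = 3 each), a difference of -11.6%. In limma the log2 fold change was -0.16 with a standard error of 0.052 (adjusted p = 0.0448). It did not pass without M8 replicate 1 (log2 fold change -0.14, limma adjusted p = 0.147) or without parental replicate 2 (-0.15, limma adjusted p = 0.121), and it passed in the other 15 alternatives.

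The ratio of Ahcyl2 to Ahcyl1 was also taken within each library. It was 0.123, 0.124 and 0.120 in parental replicates 1 to 3 and 0.0980, 0.103 and 0.105 in M8 replicates 1 to 3. The lines did not overlap, and the log2 difference was -0.27 (95% interval -0.36 to -0.18, exact two-sided permutation p = 0.1, the smallest possible, adjusted p = 0.267 over 4 pairs). No ratio could reach an adjusted p below 0.1 in this test, whatever its values. With each library left out in turn, the difference stayed between -0.29 and -0.24. In contrast, the ratio of Ahcyl1 to Ahcy overlapped between the lines, with means of 1.72 ± 0.0520 in parental cells and 1.80 ± 0.0580 in M8 (SD, n = 3 each, exact permutation p = 0.2, adjusted p = 0.267). Its log2 difference of 0.068 ranged from 0.043 to 0.090 without 1 library.

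**Figure D2:**
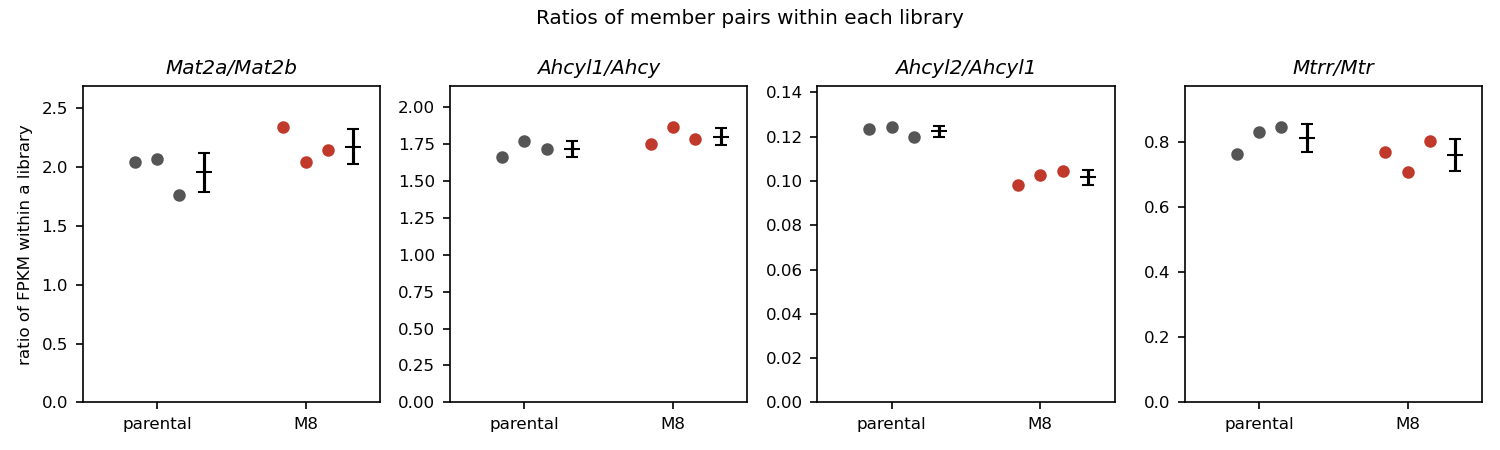
Each panel plots the ratio of the FPKM of 2 members in the 3 parental (grey) and 3 M8 (red) libraries, with the mean and SD as a black bar. Of the 4 ratios, that of Ahcyl2 to Ahcyl1 is the one whose lines do not overlap, at 0.120 to 0.124 in parental cells and 0.0980 to 0.105 in M8.

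Methionine synthase, encoded by Mtr, uses vitamin B12 to move the methyl group of 5-methyltetrahydrofolate onto homocysteine, and methionine synthase reductase, encoded by Mtrr, keeps its cofactor active. The FPKM of Mtr was 10.2, 9.96 and 9.71 in parental cells and 10.4, 10.5 and 10.7 in M8. The M8 libraries were all higher, but the difference did not pass the test (log2 fold change 0.077, 95% interval -0.037 to 0.19, limma adjusted p = 0.283). Mtrr had an FPKM of 7.79, 8.27 and 8.20 in parental cells and 8.0, 7.47 and 8.63 in M8, with the M8 libraries on both sides of the parental ones. Its log2 fold change was -0.010 (95% interval -0.16 to 0.13, limma adjusted p = 0.921). The ratio of Mtrr to Mtr was 0.813 ± 0.0438 in parental cells and 0.760 ± 0.0483 in M8 (SD, n = 3 each, exact permutation p = 0.3, adjusted p = 0.3). The lines overlapped, and the log2 difference of -0.096 had a 95% interval of -0.29 to 0.098. It ranged from -0.14 to -0.046 without 1 library.

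Mtap encodes methylthioadenosine phosphorylase, the first step of methionine salvage. Its FPKM was 62.1, 63.8 and 64.1 in parental cells and 62.2, 65.6 and 65.1 in M8. The lines overlapped, with a log2 fold change of 0.022 (95% interval -0.068 to 0.11, limma adjusted p = 0.718). In the mouse genome GRCm38, Mtap lies on chromosome 4 (89137122 to 89181081), and Cdkn2a begins 93.4 kb and Cdkn2b 125.2 kb downstream of it. In tumors that lose this region, Mtap is often lost together with the cell cycle inhibitors encoded by these neighbours. Here Cdkn2a and Cdkn2b were listed at 0 in all 6 libraries, whereas Mtap ranked 1440 by mean FPKM among the 24346 symbols. Of the other neighbours, Dmrta1 was at no more than 0.0485 FPKM, and Mllt3 (mean 9.30 FPKM) and Klhl9 (11.1 FPKM) were expressed and did not pass the test, except that Klhl9 was called lower without parental replicate 3.

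Cbs and Cth encode cystathionine beta-synthase and cystathionine gamma-lyase, the enzymes of transsulfuration that turn homocysteine into cysteine. Both fell below the level required for the test. Cbs was listed at 0 in parental replicates 1 and 3 and in M8 replicates 2 and 3, and at 0.0556 FPKM in parental replicate 2 and 0.0603 FPKM in M8 replicate 1. Multiplied by the relative depth of its library, each value was the same single step to within 1%. That is the size of 1 read if the step is the smallest possible. The value in M8 replicate 1 came from the library with the raised hepatocyte markers. For Cth, parental replicates 1 to 3 had 0.0745, 0.0524 and 0.255 FPKM and M8 replicates 1 to 3 had 0.142, 0.193 and 0.176 FPKM. Multiplied by relative depth in the same way, these values were whole multiples of 1 step. They were 3, 2 and 11 steps in parental cells and 5, 6 and 6 steps in M8, which added up to 16 and 17. Such steps are not adjusted for depth, and relative depth added up to 3.02 in parental and 2.49 in M8 libraries. Parental replicate 3 was the highest library and parental replicate 2 the lowest, so the lines overlapped, and no difference in Cth was detectable at this depth. Such counts cover counting error only, and no ratio of Cth to Cbs was computed, since Cbs was at 0 in 4 of the libraries listed above.

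**Figure D3:**
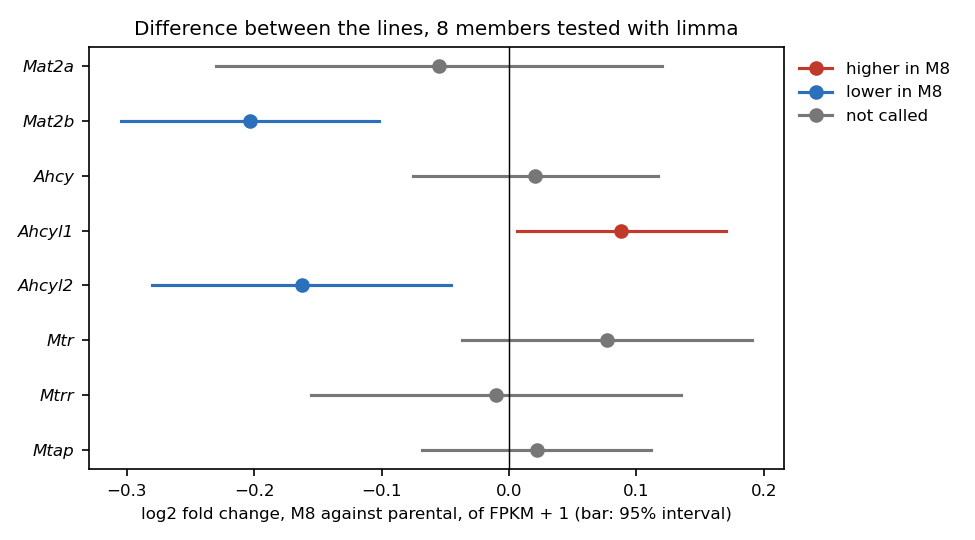
The plot gives the log2 fold change of FPKM + 1 in M8 against parental cells for the 8 genes tested with limma, with its 95% interval as a bar, in red for higher, blue for lower and grey for genes that did not pass. The intervals of Mat2b (-0.30 to -0.10) and Ahcyl2 (-0.28 to -0.045) lie below 0, and that of Ahcyl1 (0.0065 to 0.17) just above it.

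**Figure D4:**
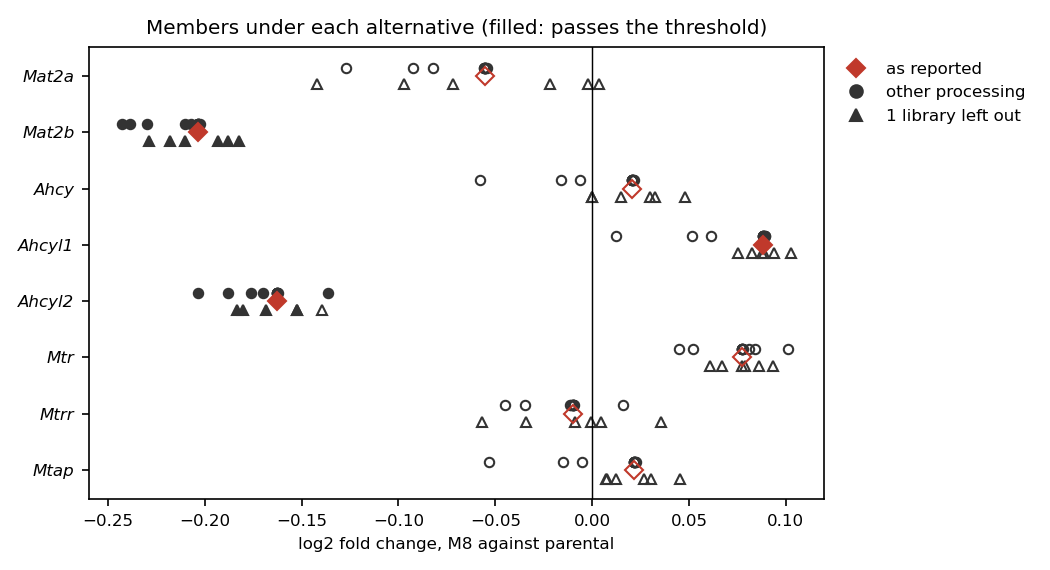
The plot gives the log2 fold change of M8 against parental cells for each of the 8 genes as reported (red diamonds), under other processing (circles) and with 1 library left out (triangles), and filled symbols passed the threshold. Every symbol of Mat2b is filled and lies between -0.24 and -0.18, whereas most symbols of Ahcyl1 are open.

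The promoters of the members that passed the test, and of Cbs, are shown because these genes differed between the lines or were at 0 in most libraries. Each window runs from 250 bases before to 50 bases after an annotated start (RefSeq, GRCm38.p6, 5′ to 3′ on the strand of the gene), at the most upstream start where there were several. Capitals mark matches on either strand to CACGTG (the E-box), CCAAT (the CCAAT box) or GGGCGG (the GC box):
Mat2b, chr11:40692633-40692932, minus strand: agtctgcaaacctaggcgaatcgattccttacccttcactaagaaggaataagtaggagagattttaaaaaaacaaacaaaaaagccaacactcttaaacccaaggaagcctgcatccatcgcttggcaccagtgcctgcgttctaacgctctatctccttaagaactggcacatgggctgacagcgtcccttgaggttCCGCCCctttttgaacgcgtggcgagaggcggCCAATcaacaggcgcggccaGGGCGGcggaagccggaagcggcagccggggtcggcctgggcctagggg
Ahcyl2, chr6:29768193-29768492, plus strand: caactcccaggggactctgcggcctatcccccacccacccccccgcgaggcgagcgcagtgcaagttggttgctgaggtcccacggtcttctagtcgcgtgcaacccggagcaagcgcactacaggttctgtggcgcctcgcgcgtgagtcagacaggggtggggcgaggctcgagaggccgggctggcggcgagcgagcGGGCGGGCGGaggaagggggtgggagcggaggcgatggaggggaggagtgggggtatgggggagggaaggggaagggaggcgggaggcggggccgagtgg
Ahcyl1, chr3:107696511-107696810, minus strand: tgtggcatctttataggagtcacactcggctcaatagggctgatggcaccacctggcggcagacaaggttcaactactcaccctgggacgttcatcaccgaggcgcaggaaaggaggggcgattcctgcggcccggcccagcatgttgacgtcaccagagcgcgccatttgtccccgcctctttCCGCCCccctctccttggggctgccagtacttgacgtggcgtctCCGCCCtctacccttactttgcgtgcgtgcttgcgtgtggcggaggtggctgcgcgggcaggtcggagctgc
Cbs, chr17:31637156-31637455, minus strand: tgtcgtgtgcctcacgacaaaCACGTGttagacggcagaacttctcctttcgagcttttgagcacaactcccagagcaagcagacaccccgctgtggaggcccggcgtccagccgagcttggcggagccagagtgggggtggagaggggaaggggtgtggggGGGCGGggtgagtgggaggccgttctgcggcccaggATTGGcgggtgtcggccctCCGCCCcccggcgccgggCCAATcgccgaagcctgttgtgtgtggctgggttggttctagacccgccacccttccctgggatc
The windows shown for Mat2b and Ahcyl2 lie wholly inside the genes as GENCODE M21 places them (chr11:40679314-40695203 and chr6:29768011-29912310), so the 2 annotations differ in the start. RefSeq windows were found for 9 of the 10 members, Cth being the exception, and they numbered 14. CCAAT was present in 8 and GGGCGG in 11 of the 14 windows, against 37.4% and 35.7% of all 32851 windows of this length. Ahcyl1, Ahcyl2 and Mtrr have several windows each, and by gene CCAAT was in 7 and GGGCGG in 8 of the 9 members. The windows of all genes were not matched to those of the members in CG content or expression. CACGTG was found in 1 window, that of Cbs, against 7.15% of all windows. TGATGNAA, the core of the element bound by ATF4 with C/EBP factors, was in none of the 14 and in 3.97% of all windows. The Cbs window held 22 CG dinucleotides and those of Mat2b, Ahcyl2 and Ahcyl1 shown above 19, 28 and 23, whereas the median over all windows was 7. A match is a description of letters and not evidence of binding.

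Positions in GRCm38 (GENCODE M21) place Mat2a on chromosome 6 from 72432799 to 72439558 and Ahcyl2 on the same chromosome from 29768011 to 29912310. Mat2b lies on chromosome 11 from 40679314 to 40695203, Ahcy on chromosome 2 from 155059310 to 155074497, and Ahcyl1 (107663118 to 107696560) and Cth (157894248 to 157925077) on chromosome 3. Mtr (12182712 to 12258113) and Mtrr (68560780 to 68582149) are both on chromosome 13, and Cbs is on chromosome 17 from 31608894 to 31637238. Other annotated genes overlap some of them. Noncoding transcripts lie on the opposite strand of Mat2a (Particl), Ahcy (Gm45609) and Ahcyl2 (4930528J11Rik), the pseudogene Gm12607 lies opposite Mtap, and Gm43314 lies on the same strand as Cth. The libraries were stranded, but whether strand was used in assigning reads is not given in the sources used here, so the levels of these 5 members carry more uncertainty.

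Genes of neighbouring steps were described through 9 lists with 75 genes, of which 58 were tested, 23 were higher and 10 lower in M8 (39.7% and 17.2% of those tested, next to 21.2% and 16.5% of all genes). Their median log2 fold change was 0.060. Without M8 replicate 1, 16 genes of these lists were higher and 8 lower, next to 15.0% and 10.8% of all genes. The lists were chosen with earlier results of these data known, so a difference from the share of all genes is not evidence. Amino acid carriers, polyamine enzymes and methyltransferases held most of the higher genes, and Ggt1, Ccbl1 and Sqrdl had the largest falls.

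Among the carriers of methionine and cystine, 4 of 6 genes were tested and all 4 rose in M8, at a median of 0.36 on the log2 scale. Slc7a5, the light chain of the large neutral amino acid carrier, rose by 0.57 (limma adjusted p = 0.000163), its heavy chain Slc3a2 by 0.40 (limma adjusted p = 0.000206) and the cystine carrier Slc7a11 by 0.32 (limma adjusted p = 0.0407 for the last). Slc7a11 is the route by which cells take up cystine from outside, and its FPKM was 2.49 ± 0.442 in parental cells and 3.34 ± 0.0831 in M8 (SD, n = 3 each). It did not pass without parental replicate 2 or M8 replicate 1. Slc7a8 was listed at 0 in all libraries.

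Of the 18 methyltransferases that use S-adenosylmethionine, 9 rose in M8, 1 fell and 6 did not pass among 16 tested, at a median log2 fold change of 0.15. Without M8 replicate 1, the higher genes of this list numbered 7. The lower gene was Lcmt1 (-0.19), a methyltransferase of protein phosphatase 2A, which did not pass in 5 of 17 alternatives, among them those without parental replicate 2, M8 replicate 2 or M8 replicate 3. Pemt, which methylates phosphatidylethanolamine, rose most, from 3.48 ± 0.525 to 5.45 ± 0.854 FPKM (SD, n = 3 each), with 0.53 on the log2 scale (limma adjusted p = 0.00957). Gamt, the last enzyme of creatine synthesis, rose by 0.29, and Mettl16, given above, by 0.28. The protein arginine methyltransferases Prmt5 (0.27), Prmt1 (0.25) and Carm1 (0.22), chosen after their values were seen, were also higher, and their calls held in all alternatives. The maintenance DNA methyltransferase Dnmt1, chosen likewise, was higher by 0.10 (limma adjusted p = 0.0980) and lost its call in 11 of 17 alternatives. The histamine methyltransferase gene Hnmt was listed at 0 in all libraries.

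Polyamine genes moved in both directions, with 4 higher and 3 lower among 8 tested. Srm, spermidine synthase, averaged 182.7 ± 7.72 FPKM in the parental line and 258.1 ± 12.5 FPKM in the clone (SD, n = 3 each). It was higher by 0.50 on the log2 scale (limma adjusted p = 0.000282). Odc1, the ornithine decarboxylase at the start of the route, rose by 0.30, and Azin1, which protects that enzyme from its inhibitor, by 0.25. The 3 lower genes, named after their values were seen, were Oaz2, an antizyme that leads ornithine decarboxylase to breakdown (-0.21), spermine synthase Sms (-0.16, with overlapping libraries) and the acetyltransferase Sat1 (-0.12). Sms and Sat1 each lost their call in 6 of 17 alternatives, and Oaz2 alone was left without parental replicate 3 or M8 replicate 3. Amd1, the S-adenosylmethionine decarboxylase of the route, was at no more than 0.0319 FPKM in any library while its near copy Amd2 was at 52.5 FPKM, so reads of the pair cannot be assigned with certainty. Amd1 was below the level required for the test, and Amd2 did not pass (log2 fold change 0.079, limma adjusted p = 0.218).

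In methionine salvage after Mtap, the salvage enzymes Enoph1 (log2 fold change 0.26) and Apip (0.18) were higher, and Mri1 and Adi1 did not pass. Kyat1, listed under its older symbol Ccbl1, was lower (-0.51) at a mean of 1.89 FPKM, and it did not pass without parental replicate 3, M8 replicate 2 or M8 replicate 3. Enoph1 and Apip each kept their call in 11 of 17 alternatives, and both lost it without parental replicate 2, M8 replicate 1 or M8 replicate 3. Over the alternatives, the log2 fold change ranged from 0.14 to 0.36 for Enoph1 and from 0.14 to 0.24 for Apip. Mat1a and Bhmt, the liver enzymes, stayed at or below 0.219 FPKM with their highest value in M8 replicate 1, and Bhmt2 was listed at 0.

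In vitamin B12 handling, 1 gene was higher and 1 lower among 8 tested. Mut, the methylmalonyl-CoA mutase that is the other B12 enzyme of mammalian cells, fell from 17.0 ± 0.229 to 13.6 ± 0.383 FPKM (SD, n = 3 each, log2 fold change -0.30, limma adjusted p = 0.00232). Mmadhc, which directs B12 between the mutase and methionine synthase, was higher by 0.14, but did not pass with quantile normalization (0.053). Without parental replicate 3, the higher genes of this list numbered 2, with Cd320 added. Mut thus passed while Mtr did not, and the difference between their changes was not tested.

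Downstream of cysteine, 1 gene of sulfide and cysteine use was higher and 3 were lower among 6 tested. Sqor, listed as Sqrdl, encodes the mitochondrial sulfide oxidizing enzyme and fell from 22.1 ± 0.0994 to 15.9 ± 1.56 FPKM (SD, n = 3 each, log2 fold change -0.45, limma adjusted p = 0.00164). Csad, on the route to taurine, was higher by 0.29. Mpst, which makes sulfide from cysteine, was lower (-0.20) with overlapping libraries, and lost its call in 7 of 17 alternatives. Among 7 glutathione genes tested, Gclm, the modifier subunit of glutamate-cysteine ligase, was higher by 0.22 and Ggt1, which breaks down glutathione outside the cell, was lower (-0.55, limma adjusted p = 0.00128), from 12.9 ± 0.662 to 8.54 ± 0.888 FPKM (SD, n = 3 each). The other 5 did not pass. Without parental replicate 2 the lower genes of this list numbered 3, with Gclc and Ggct added, and Gclc also passed as lower in 5 other alternatives.

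**Figure D5:**
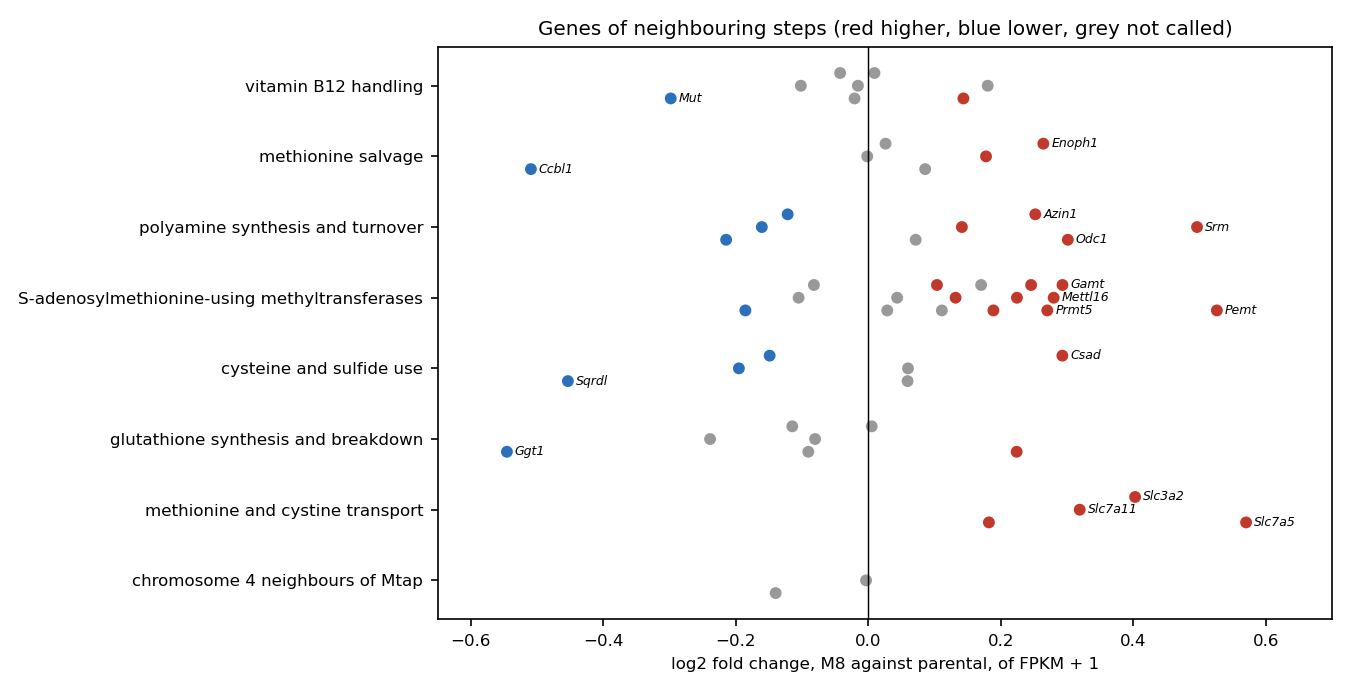
Each point is 1 of 57 genes from the 8 lists with at least 2 tested genes, placed by its log2 fold change of FPKM + 1 in M8 against parental cells, in red for higher, blue for lower and grey for not called, with names for changes beyond 0.25. Slc7a5, Pemt and Srm lie farthest to the right, at 0.57, 0.53 and 0.50, and Ggt1, Ccbl1 and Sqrdl farthest to the left, at -0.55, -0.51 and -0.45.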

How the data were processed

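Total RNA of 3 parental and 3 M8 replicates was used by the authors for stranded mRNA libraries, which were read as 101-base single reads and mapped to the mouse genome mm10 with TopHat (2.1.1 with Bowtie2 2.2.8 in the submitters' processing notes). The deposited values are FPKM, calculated by the authors with Cufflinks 2.2.1, with 1 value per gene symbol. The gene annotation, any filter and the use of strand are not given in the sources used here. The study's own test used read counts, which were not used here. The study calls the samples of a line biological replicates. Separate cultures are not stated, so p-values measure the spread between these samples.

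The lines were compared by limma (version 3.58.1, R 4.3.3, moderated with a trend) after adding 1 to each FPKM and taking log2. The fit had no covariates, was two-sided and took the 10597 genes averaging at least 1 FPKM, with Benjamini-Hochberg adjustment over them and a threshold of 0.1. Fold changes on this scale understate changes of weakly expressed genes. The members and lists were chosen with earlier results of these data known, and support nothing by their choice. Genes named outside the members were, in each list, up to 3 called genes with the largest change and those listed at 0 throughout. All other genes of the pathway lists named in the text, such as Lcmt1, Cd320, Gclc, Ggct, Mri1, Adi1, Mllt3 and Klhl9, were named after their values were seen. Older symbols (Mut, Ccbl1, Ccbl2, Sqrdl) were matched through RefSeq synonyms. Ratios were taken within a library without a pseudocount. Their 95% intervals use the pooled spread of the 6 values. Exact permutation tests of 3 against 3 cannot go below p = 0.1. Relative depth came from the most frequent ratio between libraries among genes with a mean below 0.5 FPKM, taken as whole multiples of a common step. That peak held 243 to 320 of the genes compared, and whole multiples were checked for Cbs and Cth. The fit was tested on simulated data. It recovered 43.3% of 67 genes changed 1.2-fold, 87.9% of 66 changed 1.5-fold and 100% of 65 changed 2-fold, and called 11 of 10409 unchanged genes. The simulation changed far fewer genes than the 37.7% called in these samples. The adjusted p depends on that share, so these rates cannot be carried over to the samples. Results were recomputed with a pseudocount of 0.1 or 0.5, without the filter or with a minimum mean of 5 FPKM, with TPM, median centring, upper-quartile scaling or quantile normalization, without the trend, at a threshold of 0.05, with replicate numbers as a block, and leaving out each library. Python 3.11.15 was used with scipy 1.17.1 for exact tests and matplotlib 3.10.9 for plots. The result of 1 gene in the lists is not reported here.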

Additional observations from a re-analysis of the deposited data

How the results depend on the processing

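Mat2b was lower under all 17 alternatives (log2 fold change -0.24 to -0.18), and Mtr kept its direction without passing in any. The call of Ahcyl1, and with it the count of 1 higher member, went to 0 with a pseudocount of 0.1, TPM, upper-quartile scaling, quantile normalization, no trend, a threshold of 0.05 and the replicate block, and was 0 in every fit without 1 library. The count of lower members ranged from 1 to 2 without 1 library, the 1 being Mat2b when parental replicate 2 or M8 replicate 1 was left out. Of the members that did not pass, Ahcy, Mtap and Mtrr changed sign under some scalings, while Mat2a and Mtr kept theirs under each scaling. Ahcy was at -0.016 with TPM, -0.0062 with upper-quartile scaling and -0.058 with quantile normalization, and from -5.3e-05 to 0.048 without 1 library. Mtap was at -0.015, -0.0053 and -0.053 under the same scalings. Mtrr was at 0.016 with quantile normalization and from -0.057 to 0.036 without 1 library, and Mat2a ranged from -0.14 to 0.0037 without 1 library. The median log2 fold change of all genes moved from 0.0069 to -0.028 with TPM. The count of all genes lower in M8 ranged from 1142 to 1681 without 1 library, the lowest being without M8 replicate 1. Higher genes over the 9 lists numbered 23, and 16 to 23 without 1 library. Lower genes over the 9 lists numbered 10, but 6 at a threshold of 0.05 and 5 to 9 without 1 library. The cause of these changes was not tested.

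Of the 33 called genes in the lists, 17 kept their call under every alternative in which they were tested. Deviations of same-numbered libraries correlated across genes at 0.10, -0.11 and -0.033, within the range of -0.13 to 0.18 for differently numbered ones. Replicate numbers thus showed no sign of pairing, which does not prove that the samples were unpaired. With the replicate block, 2171 genes were higher and 1688 lower, against 2250 and 1745 without it, and Mat2b (limma adjusted p = 0.0215) and Ahcyl2 (0.0670) still passed. In ratios paired by replicate number, the log2 difference was 0.15 for Mat2a to Mat2b, 0.068 for Ahcyl1 to Ahcy, -0.27 for Ahcyl2 to Ahcyl1 and -0.096 for Mtrr to Mtr, and a sign-flip test of 3 pairs cannot go below an exact p of 0.25. Depth limits Cbs and Cth, whose values rest on a total of 2 and 33 steps over the 6 libraries.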
